A study of Homo sapiens with 4 samples.

Results

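The genes described here write and erase methyl groups on histone lysines: 28 genes of methyltransferases and related SET-domain proteins and 17 of demethylases and JmjC-domain proteins. They were taken as 45 named genes, each matched by its Ensembl identifier to 1 row of the deposited tables, which hold 60614 gene identifiers. The libraries were RNA-seq of DU145, an established human prostate cancer cell line. DU145 cells with the genotype SPOP-F133V (2 libraries, here F133V 1 and 2) were compared with wild-type DU145 cells (2 libraries). SPOP is the adaptor through which a CUL3 ubiquitin ligase recognises its substrates, and the F133V change exchanges a phenylalanine for a valine in the domain that binds substrates. Both genotypes were grown in the same serum-containing medium, and no treatment or time point is named. How the F133V cells were made, whether they are 1 clone, and whether the replicates are separate cultures is not stated in the labels. The p-values therefore measure only the spread between these libraries, which may be technical.

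Lysine methylation on histone tails marks chromatin states. Methylation of H3K4 is found at active promoters and enhancers, of H3K36 and H3K79 over transcribed genes, and of H3K9, H3K27 and H4K20 in silent or compacted chromatin. Nearly all of the writers use a SET domain and S-adenosylmethionine, DOT1L being the exception in fold. The erasers are flavin-dependent amine oxidases (KDM1A and KDM1B) or JmjC dioxygenases that need iron and 2-oxoglutarate. In prostate cancer EZH2, KDM1A and NSD2 are well-studied members, and the H3K9 enzymes encoded by EHMT1 and EHMT2 as well as the H3K36 enzyme SETD2 have been described as targets of SPOP at the protein level. The values below are RNA levels, so they do not measure the proteins or the marks.

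Promoter sequences are shown for the 3 genes with the largest falls and the 2 with the largest rises among genes called in the same direction by both fits described below. They are RefSeq sequences on GRCh38.p14, 5′ to 3′ on the strand of the gene, and end before the first base of the gene in RefSeq or GENCODE, whichever comes first. Capitals mark matches on either strand to the GC box GGGCGG or the CCAAT box CCAAT. The windows are chr10:14878616-14878819 (plus strand), chr7:105013955-105014178 (plus), chr1:155562808-155563053 (minus), chr17:42745050-42745290 (minus) and chr1:43649899-43650148 (plus).
SUV39H2: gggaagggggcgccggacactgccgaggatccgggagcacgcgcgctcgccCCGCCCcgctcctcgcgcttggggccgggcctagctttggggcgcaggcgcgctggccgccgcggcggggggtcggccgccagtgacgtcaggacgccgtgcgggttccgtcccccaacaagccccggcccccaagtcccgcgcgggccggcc
KMT2E: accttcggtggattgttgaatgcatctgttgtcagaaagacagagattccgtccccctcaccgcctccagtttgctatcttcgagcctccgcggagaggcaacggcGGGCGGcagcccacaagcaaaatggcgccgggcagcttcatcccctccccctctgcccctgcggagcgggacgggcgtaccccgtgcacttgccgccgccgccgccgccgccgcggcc
ASH1L: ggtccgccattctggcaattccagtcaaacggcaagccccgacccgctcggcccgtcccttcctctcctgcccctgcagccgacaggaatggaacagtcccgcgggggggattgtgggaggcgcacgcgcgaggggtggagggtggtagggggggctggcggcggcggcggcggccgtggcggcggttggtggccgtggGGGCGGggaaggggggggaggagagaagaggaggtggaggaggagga
EZH1: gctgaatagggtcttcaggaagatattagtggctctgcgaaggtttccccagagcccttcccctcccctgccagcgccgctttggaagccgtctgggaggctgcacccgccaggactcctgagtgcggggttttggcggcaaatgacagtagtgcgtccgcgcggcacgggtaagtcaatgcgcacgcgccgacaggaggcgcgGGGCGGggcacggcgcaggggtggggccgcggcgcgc
KDM4A: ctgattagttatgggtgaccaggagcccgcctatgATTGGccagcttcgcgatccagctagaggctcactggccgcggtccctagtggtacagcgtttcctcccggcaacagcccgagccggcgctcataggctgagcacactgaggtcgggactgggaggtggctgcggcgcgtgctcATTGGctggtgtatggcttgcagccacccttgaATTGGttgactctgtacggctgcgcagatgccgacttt
The 3 promoters of falling genes and that of EZH1 each hold 1 GC box and no CCAAT box in the stretch shown, whereas the KDM4A promoter holds 3 CCAAT boxes, all on the strand opposite the gene, and no GC box.

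RefSeq promoters were found for 41 of the 45 genes and searched over the 250 bases upstream of the start. Their GC content had a median of 66.8%, against 58% over all 27305 promoters. A GC box stood in 30 of the 41, or 73.2%, against 42.3% of all promoters. The E-box CACGTG stood in 8 (19.5%, against 6.49%), the CCAAT box in 14 (34.1%, against 33%) and the ETS motif CCGGAAG in 5 (12.2%, against 8.82%). Of the E2F motifs, TTTCCCGC stood in 2 (4.88%, against 1.42%) and TTTGGCGC in 0 (0.553% of all), and the AP-1 motif TGACTCA stood in 2 (4.88%, against 4.16%). Both strands were searched, and the motifs were not required to be free of overlap. A match to such letters is a description of the window and not a bound site.

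Each library held 35173245 to 39642063 reads in genes, and each of the 45 genes drew 204 to 19548 reads per library. SETDB2 had the fewest reads and the largest SE of the set, 0.11 without and 0.1 with the GC adjustment described below. All 45 passed the filter on low counts and stood among 17539 genes tested. Levels are given in CPM, read counts scaled to a common library size. SPOP itself was at 1171.2 and 1150.6 CPM in the F133V libraries and 843.5 and 906.0 CPM in wild-type (log2 fold change 0.41, SE 0.055, edgeR adjusted p = 2.7e-06). Gene counts do not separate mutant from wild-type SPOP transcripts, so this does not check the genotype. The epithelial markers EPCAM, CDH1, KRT7, KRT8, KRT18 and KRT19 were present at 81.1 to 1718.7 CPM. All 6 were called higher in F133V without the GC adjustment (100%, against 27.2% of all genes tested). With it 5 were still called higher, but KRT7, the most abundant, was called lower (0.20, GC-adjusted −0.12, edgeR adjusted p = 0.00191). The prostate luminal markers KLK2 and KLK3 had no read. Of 16 blood, stromal and neuroendocrine markers, CD14, COL1A1 and SYP exceeded 1 CPM, with 7.54 CPM the highest value. The markers of dividing cells moved with genotype. Without adjustment 10 of 15 were called lower (66.7%, against 27.6% of all genes tested) and 1 higher. Both fits described below called 8 lower (53.3%, against 14.9%). The summed level of all 15 was 3024.6 and 2931.9 CPM in F133V and 4120.6 and 4109.6 CPM in wild-type. The part of this difference in the results below was not tested. In bulk RNA, fewer cells of a kind and less RNA per cell cannot be told apart.

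Fold changes followed the base composition of the transcript, so each is given from 2 edgeR quasi-likelihood fits. The first used the counts with TMM scaling only (unadjusted), and the second added an offset per library that removes the smooth trend on transcript GC content and length (GC-adjusted). A gene was called when its Benjamini-Hochberg adjusted p, taken over all genes tested, was under 0.05. Across the 45 genes, Spearman's rho between GC content and the unadjusted log2 fold change was 0.68, close to the 0.73 found over 11776 genes, and after adjustment it was −0.16. Between the 2 F133V libraries themselves rho was 0.81, and between the 2 wild-type libraries 0.19. Between transcript length and the unadjusted log2 fold change, rho was −0.23 across the 45 genes and −0.29 over the 11776. The points of these correlations share the same libraries, so they are descriptions. The median transcript of the 45 genes was 6451 bases, against 3157 over all genes tested. Median GC content was 48.6% and 48.8%. The part of transcript length in the counts of calls below was not tested. Of the 15 genes lowest in GC content (38.5% to 45%), 12 were called lower and 0 higher without adjustment, and 6 higher and 6 lower with it. Of the 15 richest in GC (51.8% to 66.1%), 1 was called lower and 3 higher without adjustment, and 8 lower and 0 higher with it. An offset of this kind also removes any real difference that follows GC content or length. The cause of the trends between the genotypes therefore cannot be told apart from genotype here. The trend between the 2 F133V libraries (rho 0.81, and 0.77 over the 11776 genes) compares libraries of the same genotype, and its cause was not tested.

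**Figure D1:**
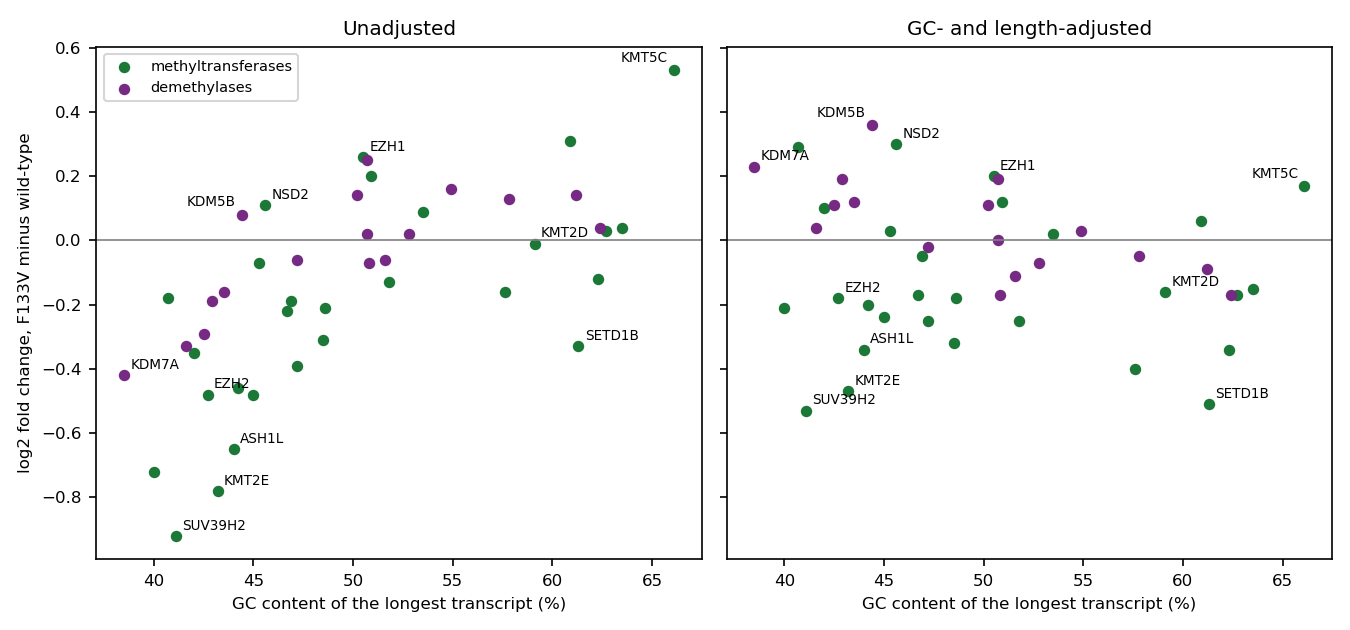
Log2 fold change (F133V minus wild-type, vertical axis) of each of the 45 genes against the GC content of its longest transcript in percent (horizontal axis), unadjusted on the left and GC- and length-adjusted on the right. Points are genes, coloured by kind. On the left the points climb from KDM7A and SUV39H2 at low GC content to KMT5C at 66.1%, with rho 0.68, and on the right rho is −0.16.

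Without adjustment 6 of the 45 genes rose (13.3%, against a background of 27.2% of all genes tested) and 18 fell (40%, against 27.6%). The median log2 fold change was −0.12 for the set and 0.02 for all genes. With GC adjustment 10 rose (background 27.6%) and 20 fell (background 24.5%), with medians of −0.07 and 0.02. In either direction, 54.8% of all genes were called without and 52.2% with adjustment, so a call by itself is common in these libraries. Both fits called 3 genes higher (6.67%, background 17.6%), namely SETDB1, EZH1 and KDM4A. Both called 11 genes lower (24.4%, background 14.9%), namely KMT2C, KMT2E, SETD1B, SETD7, SUV39H2, EZH2, NSD1, ASH1L, SETD4, SETD5 and SETD6. A group of 4 genes, NSD3, KDM3A, KDM5A and KDM7A, was called lower by the first fit and higher by the second, against 3.79% of all genes called in opposite directions. Neither fit called 9 genes. The libraries of the genotypes did not overlap in 12 genes higher in F133V and 26 lower, against 40.1% and 37.8% of all genes tested, so separation of the 4 libraries is common here too. Against a fold of at least 1.2, edgeR's glmTreat without GC adjustment called 1 gene higher (background 13.7%) and 9 lower (background 17.5%). The 1 higher, KMT5C, was not called by the GC-adjusted fit. Of the 9 lower, that fit did not call SETDB2 and called KDM7A higher. The counts of calls moved when single libraries were left out, both for the 45 genes and for all genes tested.

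Most of the falls were of methyltransferase genes. Of 28 methyltransferase genes, 14 fell (50%) and 4 rose (14.3%) without adjustment (median −0.19). In both fits 11 fell (39.3%) and 2 rose (7.14%). Of 17 demethylase genes, 4 fell (23.5%) and 2 rose (11.8%) without adjustment (median 0.02). In both fits 0 fell and 1, KDM4A, rose (5.88%). Over all genes tested, 27.6% fell and 27.2% rose without adjustment, and 14.9% and 17.6% did so in both fits. The counts of smaller groups below are to be read beside these shares. The difference between the 2 kinds was not tested. The summed level of the methyltransferase genes was 2300.3 and 2301.3 CPM in F133V and 2485.7 and 2507.8 CPM in wild-type, and that of the demethylase genes 1173.7 and 1176.1 against 1192.5 and 1195.4 CPM.

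**Figure D2:**
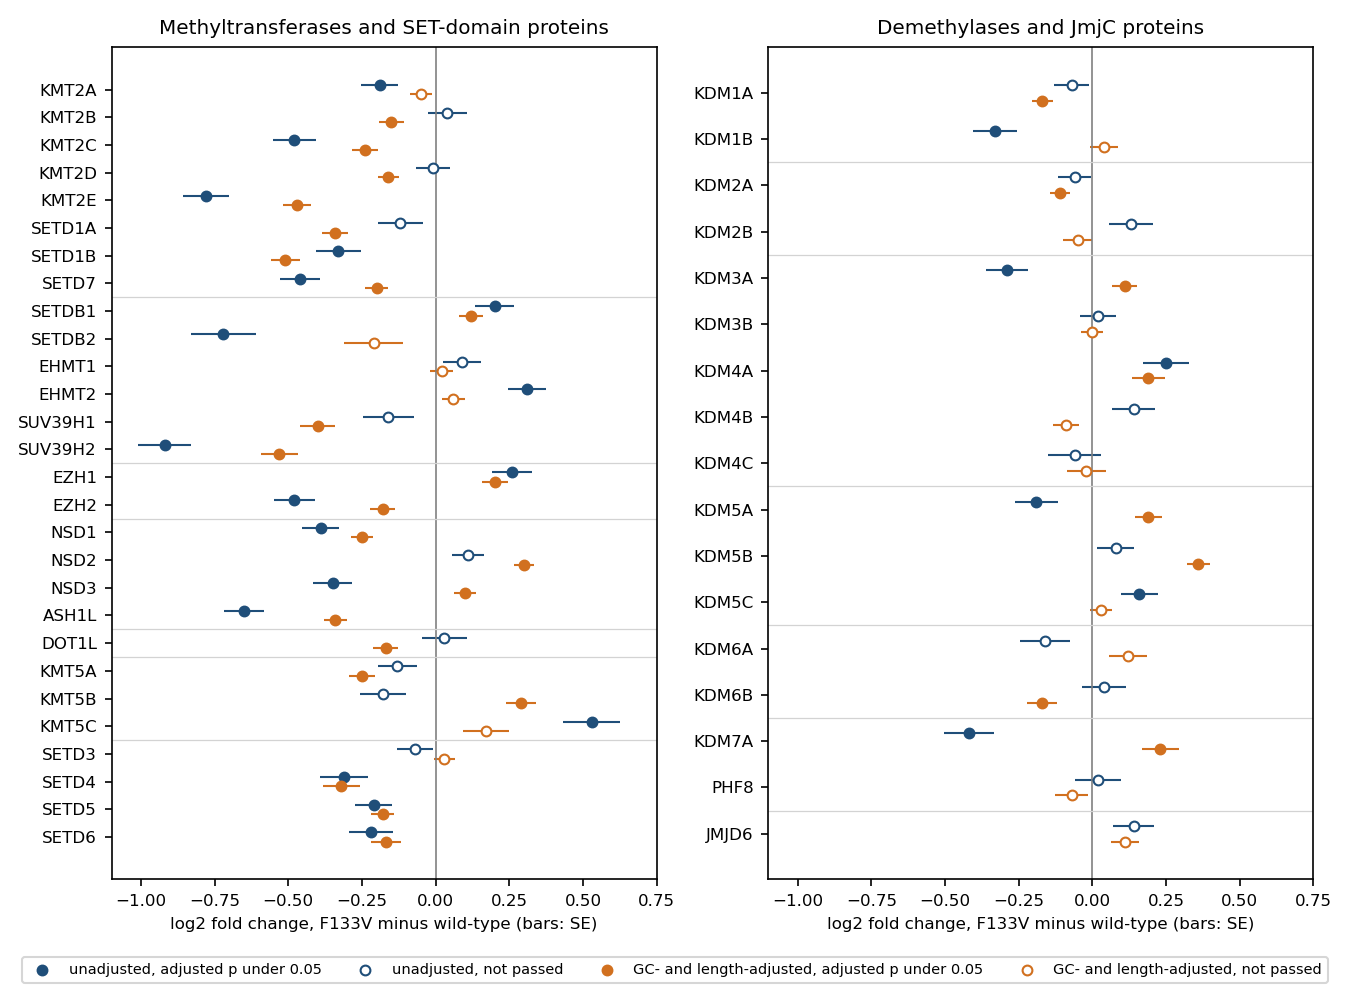
Log2 fold change (F133V minus wild-type, horizontal axis) of each gene, with bars of 1 SE, for 28 methyltransferases on the left and 17 demethylases on the right, ordered by substrate. Blue points are unadjusted and orange points GC-adjusted, and filled points have an adjusted p under 0.05. SUV39H2, KMT2E and SETDB2 lie farthest to the left in the unadjusted fit, and the orange points of NSD3, KDM3A, KDM5A and KDM7A lie on the other side of 0 from the blue ones.

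Of the 8 genes grouped here as H3K4 methyltransferases, KMT2E among them, 5 fell without adjustment (62.5%, against 27.6% of all genes). With adjustment 7 of the 8 fell (background 24.5%), and none rose in either fit. KMT2E (chr7:105014179-105114361, plus strand, GRCh38), a divergent MLL-family protein with PHD and SET domains, had the largest unadjusted fall of these genes. Its level was 40.1 and 34.1 CPM in the F133V libraries and 64.6 and 63.2 CPM in wild-type (log2 fold change −0.78, SE 0.078, edgeR adjusted p = 5.4e-08; GC-adjusted −0.47, adjusted p = 7.37e-11). Both F133V libraries lay below both wild-type libraries. KMT2C, which with KMT2D methylates H3K4 at enhancers, was at 53.7 and 47.5 against 70.1 and 71.5 CPM (−0.48, SE 0.073, edgeR adjusted p = 1.09e-05; GC-adjusted −0.24, adjusted p = 1.44e-05). SETD7, a monomethyltransferase that also acts on non-histone proteins, was at 90.6 and 81.6 against 115.6 and 120.8 CPM (−0.46, SE 0.067, edgeR adjusted p = 8.2e-06; GC-adjusted −0.20, adjusted p = 2.75e-05). In each of these 3 genes F133V 2 lay below F133V 1.

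SETD1B, a catalytic subunit of the SET1 complex, behaved differently with adjustment. It was at 33.2 and 37.2 CPM in F133V and 43.9 and 44.8 CPM in wild-type (−0.33, SE 0.076, edgeR adjusted p = 0.000929). With a transcript GC content of 61.3% its fall was larger after adjustment (−0.51, adjusted p = 1.28e-11), and its paralog SETD1A was called lower only with adjustment (unadjusted −0.12, edgeR adjusted p = 0.174; GC-adjusted −0.34, adjusted p = 1.48e-08). KMT2A, the founding MLL gene, fell without adjustment (93.9 and 92.2 against 108.0 and 104.8 CPM, −0.19, edgeR adjusted p = 0.0129) and did not pass with it (−0.05, adjusted p = 0.27). For KMT2A, 18.9% of the exonic bases lie under other annotated genes. KMT2B was at 66.6 and 69.9 against 65.3 and 67.5 CPM, so the genotypes overlapped (0.04, edgeR adjusted p = 0.635), and it was called lower only with adjustment (−0.15, adjusted p = 0.00295). KMT2D had a mean of 175.2 CPM in F133V and 176.7 CPM in wild-type (−0.01, edgeR adjusted p = 0.87; GC-adjusted −0.16, adjusted p = 0.000319).

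**Figure D3:**
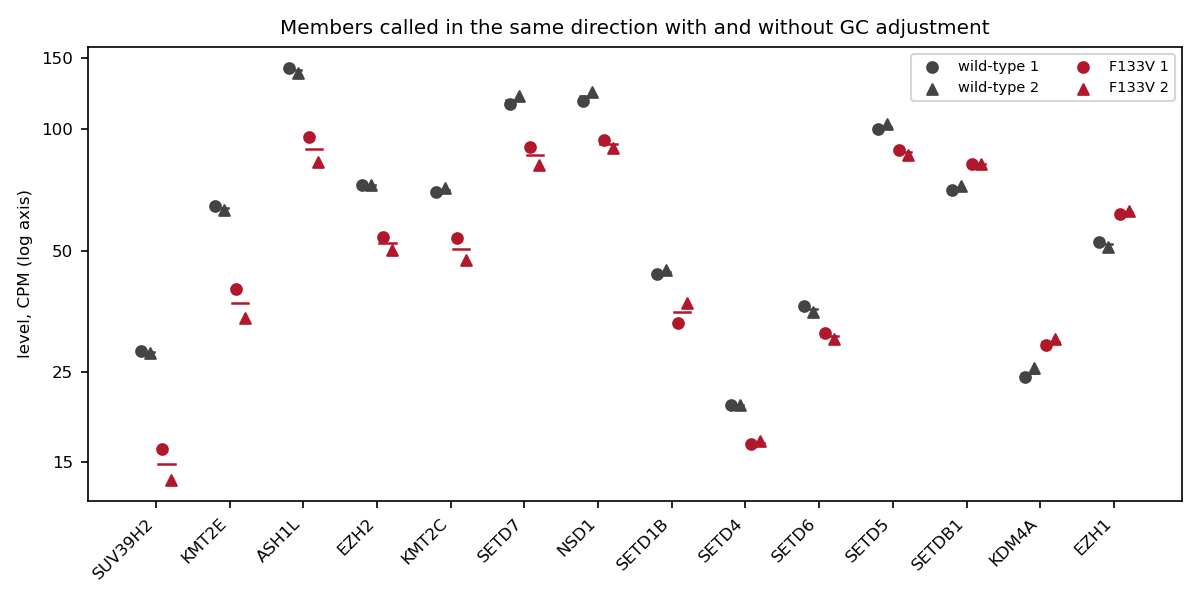
Level in CPM (log axis) of the 14 genes called in the same direction by both fits, ordered by fold change, with wild-type libraries in grey and F133V libraries in red. Points are libraries (circles replicate 1, triangles replicate 2) and short lines the mean of each genotype. The genes were chosen by their calls, so separation of the genotypes was largely fixed by the choice, and the plot runs from SUV39H2 at 16.1 and 13.5 against 28.3 and 27.9 CPM to EZH1 at 61.5 and 62.9 against 52.6 and 51.2 CPM.

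The 6 H3K9 methyltransferases split, with 2 lower, 2 higher and 2 not passed without adjustment. The lower and the higher were 33.3% each, against 27.6% and 27.2% of all genes. SUV39H2 (chr10:14878820-14904315, plus strand), which trimethylates H3K9 in heterochromatin and whose promoter is the first shown above, had the largest fall of the 45 genes. It was at 16.1 and 13.5 CPM in F133V and 28.3 and 27.9 CPM in wild-type (−0.92, SE 0.089, edgeR adjusted p = 3.66e-08; GC-adjusted −0.53, adjusted p = 3.09e-09). Its paralog SUV39H1, 20.3% of whose exonic bases lie under another annotated gene, was at 19.9 and 22.8 against 24.7 and 23 CPM and was called lower only with adjustment (−0.16, edgeR adjusted p = 0.118; GC-adjusted −0.40, adjusted p = 4.14e-07). Per length of transcript, the ratio of SUV39H1 to SUV39H2 was 1.28 and 1.75 in F133V and 0.904 and 0.857 in wild-type. The 2 unadjusted log2 fold changes differed by 0.76 and the GC-adjusted ones by 0.13, a difference that was not tested. SETDB2 was the lowest of the set per length and fell without adjustment (5.56 and 6.01 against 9.2 and 9.92 CPM, −0.72, edgeR adjusted p = 1.04e-05). With adjustment it did not pass (−0.21, adjusted p = 0.0861).

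SETDB1, which is recruited by TRIM28 to silence retroelements, rose slightly in both fits. It was at 82.2 and 81.8 CPM in F133V and 70.8 and 72.5 CPM in wild-type (0.20, SE 0.065, edgeR adjusted p = 0.0146; GC-adjusted 0.12, adjusted p = 0.0101). Of its exonic bases 13.4% lie under CERS2, and its call was kept in 9 of 16 further settings. EHMT2, which encodes G9a, was at 107.6 and 117.7 against 91.1 and 90.9 CPM and rose without adjustment (0.31, SE 0.065, edgeR adjusted p = 0.000463), but did not pass with it (0.06, adjusted p = 0.174). Its partner EHMT1, which encodes GLP, was at 101.0 and 109.5 against 97.8 and 99.4 CPM and passed in neither fit (0.09, edgeR adjusted p = 0.228; GC-adjusted 0.02, adjusted p = 0.694).

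The pair of H3K27 methyltransferases, alternative catalytic subunits of Polycomb repressive complex 2 (PRC2), was called in opposite directions. EZH2 (chr7:148807383-148884321, minus strand), the subunit of dividing cells, was at 54.2 and 50.2 CPM in F133V and 72.7 and 72.6 CPM in wild-type (−0.48, SE 0.069, edgeR adjusted p = 6.64e-06; GC-adjusted −0.18, adjusted p = 0.000345). EZH1 (chr17:42700275-42745049, minus strand), the subunit best known from resting cells, was at 61.5 and 62.9 against 52.6 and 51.2 CPM (0.26, SE 0.068, edgeR adjusted p = 0.00292; GC-adjusted 0.20, adjusted p = 0.000186). Per length of transcript, the ratio of EZH1 to EZH2 was 0.894 and 0.987 in F133V and 0.57 and 0.555 in wild-type. The fold changes of the 2 genes differed by 0.74 on the log2 scale without adjustment and by 0.38 with it. With 2 libraries against 2, an exact permutation test of such a ratio cannot go below p = 0.333. No exonic base of either gene lies under another annotated gene.

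Of the 4 H3K36 methyltransferases, ASH1L and NSD1 fell in both fits. ASH1L (chr1:155335268-155562807, minus strand), a Trithorax-group enzyme, was at 95.6 and 83 CPM in F133V and 142.1 and 137.7 CPM in wild-type (−0.65, SE 0.069, edgeR adjusted p = 1.44e-07; GC-adjusted −0.34, adjusted p = 1.33e-09). NSD1 (chr5:177133025-177300215, plus strand), which dimethylates H3K36, was at 93.9 and 89.7 against 117.7 and 123.4 CPM (−0.39, SE 0.063, edgeR adjusted p = 2.56e-05; GC-adjusted −0.25, adjusted p = 4.71e-07). NSD2, which makes the same mark and is the most abundant of the 45 genes by CPM, was at 532.6 and 548.1 against 497.6 and 506.0 CPM. It was called higher only with adjustment (0.11, edgeR adjusted p = 0.103; GC-adjusted 0.30, adjusted p = 1.24e-09), although both F133V libraries lay above both wild-type libraries. NSD3 was at 92.8 and 84 against 113.1 and 112.2 CPM. It was called lower without adjustment (−0.35, edgeR adjusted p = 0.000148) and higher with it (0.10, adjusted p = 0.0277).

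DOT1L, the H3K79 methyltransferase that elongation complexes recruit, was at 66.1 and 77.1 CPM in F133V and 68.5 and 72 CPM in wild-type. The genotypes overlapped (0.03, edgeR adjusted p = 0.781), and it was called lower with adjustment (−0.17, adjusted p = 0.000637). Among the 3 H4K20 methyltransferases, KMT5C had the largest unadjusted rise of the 45 genes, at 14 and 15.9 against 9.96 and 10.8 CPM (0.53, SE 0.097, edgeR adjusted p = 0.000108). It has the highest GC content, 66.1%, and did not pass with adjustment (0.17, adjusted p = 0.0563). KMT5B, which like KMT5C adds further methyl groups to the first, was at 36.9 and 32.3 against 38.6 and 39.9 CPM (−0.18, edgeR adjusted p = 0.0595). With adjustment it was called higher (0.29, adjusted p = 4.38e-06). KMT5A, which adds the first methyl group, did not pass without adjustment (−0.13, edgeR adjusted p = 0.105) and was called lower with it (−0.25, adjusted p = 6.87e-06).

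Of the 4 other SET-domain genes, 3 fell in both fits by similar amounts (75%, against 14.9% of all genes). SETD4 was at 16.6 and 16.9 CPM in F133V and 20.8 in each wild-type library (−0.31, SE 0.082, edgeR adjusted p = 0.00279; GC-adjusted −0.32, adjusted p = 3.83e-05). SETD5 was at 89 and 86.5 against 99.9 and 103.1 CPM (−0.21, SE 0.063, edgeR adjusted p = 0.00814; GC-adjusted −0.18, adjusted p = 0.000183). SETD6, which monomethylates RELA, was at 31.2 and 30.3 against 36.5 and 35.2 CPM (−0.22, SE 0.074, edgeR adjusted p = 0.0163; GC-adjusted −0.17, adjusted p = 0.00473). In these genes the F133V replicates lay close together, and 21.4% of the exonic bases of SETD6 lie under CNOT1. SETD3, the actin histidine methyltransferase, was at 115.6 and 112.4 against 122.2 and 117.9 CPM and passed in neither fit (−0.07, edgeR adjusted p = 0.324; GC-adjusted 0.03, adjusted p = 0.543).

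The flavin-dependent demethylases remove mono- and dimethylation, chiefly from H3K4. KDM1A, or LSD1, was at 173.8 and 172.5 CPM in F133V and 185.4 and 178.6 CPM in wild-type and did not pass without adjustment (−0.07, edgeR adjusted p = 0.315), but was called lower with it (−0.17, adjusted p = 0.000116). KDM1B was at 41.9 and 37.7 against 49.6 and 50.9 CPM and fell without adjustment (−0.33, SE 0.074, edgeR adjusted p = 0.000696), but not with it (0.04, adjusted p = 0.501). Per length of transcript, KDM1A (59.5 CPM per kb in wild-type, 56.6 in F133V) and NSD2 (58.6 and 63.1) were the 2 highest of the 45 genes, and SETDB2 (1.56 and 0.942) the lowest. The order of KDM1A and NSD2 was reversed between the genotypes, and the difference between them was not tested.

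Among the JmjC demethylases of H3K9, KDM4A was the only demethylase gene called in the same direction by both fits. It was at 29.2 and 30.2 CPM in F133V and 24.3 and 25.6 CPM in wild-type (0.25, SE 0.077, edgeR adjusted p = 0.00893; GC-adjusted 0.19, adjusted p = 0.00461). Its promoter, with 3 CCAAT boxes, is the last shown above. Of its exonic bases 48.5% lie under other annotated genes, KDM4A-AS1 among them, and the labels do not state whether counting used strand, so its value is uncertain. KDM4B (62.3 and 70.8 against 59.5 and 61.4 CPM) and KDM4C (22.6 and 18.8 against 21.5 and 21.7 CPM) passed in neither fit. KDM3A, which removes mono- and dimethylation from H3K9, was at 67.3 and 58.9 against 76.4 and 77.5 CPM. It was called lower without adjustment (−0.29, edgeR adjusted p = 0.00218) and higher with it (0.11, adjusted p = 0.0266). KDM3B was at 121.2 and 123.4 against 118.0 and 123.0 CPM and passed in neither fit.

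The H3K4 demethylases of the KDM5 family gave 1 higher, 1 lower and 1 not passed without adjustment. KDM5C was at 109.1 and 117.0 CPM in F133V and 100 and 101.7 CPM in wild-type (0.16, SE 0.064, edgeR adjusted p = 0.0336; GC-adjusted 0.03, adjusted p = 0.564). KDM5A was at 47.9 and 43.6 against 51.6 and 52.4 CPM and was called lower without (−0.19, edgeR adjusted p = 0.0352) and higher with adjustment (0.19, adjusted p = 0.00039). KDM5B, known for its high level in many tumours, was at 99.1 and 95.6 against 93.6 and 91.2 CPM (0.08, edgeR adjusted p = 0.327). It had the largest GC-adjusted rise of the set (0.36, adjusted p = 3.34e-10). The direction for KDM5A thus depended on the adjustment, and the call for KDM5B and KDM5C too.

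The H3K36 demethylases of the KDM2 family showed small differences. KDM2A was at 220.8 and 223.1 CPM in F133V and 232.9 and 231.3 CPM in wild-type (−0.06, edgeR adjusted p = 0.354; GC-adjusted −0.11, adjusted p = 0.00647), and KDM2B at 38.7 and 42.7 against 37.2 and 37.1 CPM (0.13, edgeR adjusted p = 0.147; GC-adjusted −0.05, adjusted p = 0.438). Of the H3K27 demethylases, KDM6A (UTX, a subunit of the KMT2C and KMT2D complexes) was at 18.4 and 16.4 against 19.4 CPM in each wild-type library and passed in neither fit. KDM6B (JMJD3) was at 33.9 and 36.4 against 34.7 and 33.8 CPM, overlapping between genotypes (0.04, edgeR adjusted p = 0.688), and was called lower with adjustment (−0.17, adjusted p = 0.00396).

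KDM7A and PHF8 pair a PHD finger with a JmjC domain and between them erase methylation of H3K9, H3K27 and H4K20. KDM7A was at 17.5 and 15.6 CPM in F133V and 22.3 and 22.1 CPM in wild-type (−0.42, SE 0.085, edgeR adjusted p = 0.000282). Its transcript has the lowest GC content of the set, 38.5%, and it was called higher with adjustment (0.23, adjusted p = 0.00252), so its direction depended on the adjustment. PHF8 was at 25.2 and 27 against 25.4 and 26.3 CPM, overlapping between genotypes, and passed in neither fit. JMJD6, better known as a lysine hydroxylase, was at 44.9 and 46.1 against 40.9 and 41.4 CPM and passed in neither fit (0.14, edgeR adjusted p = 0.0887; GC-adjusted 0.11, adjusted p = 0.0571), although both F133V libraries lay above both wild-type libraries.

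The calls that both fits shared were followed through 16 further settings of scaling, filter, test, replicate block and left-out libraries, some with the GC adjustment. In 7 of the 14 genes the call was kept in every one of these settings: KMT2C, KMT2E, SETD7, SUV39H2, EZH2, NSD1 and ASH1L, all lower. The 14 genes had been chosen by their calls in these same libraries. The share of all genes whose calls were kept in this way was not computed, so how common this is remains unknown. Over the settings the log2 fold change ran from −1.09 to −0.47 for SUV39H2, from −0.94 to −0.42 for KMT2E and from −0.78 to −0.30 for ASH1L. For EZH2 it ran from −0.56 to −0.18, for NSD1 from −0.46 to −0.22, for KMT2C from −0.61 to −0.18 and for SETD7 from −0.57 to −0.18. SETD1B kept its call in 14 settings, EZH1 and SETD4 in 13, SETD5 in 12, KDM4A and SETD6 in 11 and SETDB1 in 9.

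The other 7 calls were each lost against a fold of 1.2 and when at least 1 of the wild-type libraries was left out, which leaves the spread to the F133V libraries. Without wild-type replicate 1 and without wild-type replicate 2 in turn, the edgeR adjusted p was 0.0357 and 0.0557 for SETD1B, 0.0765 and 0.0697 for SETD4, 0.103 and 0.175 for EZH1, and 0.26 and 0.115 for KDM4A. In the same order it was 0.142 and 0.245 for SETD5, 0.289 and 0.16 for SETD6, and 0.311 and 0.223 for SETDB1. Calls also ended for SETD5 and SETD6 with upper-quartile scaling (adjusted p = 0.19 and 0.219) and for SETDB1 and KDM4A with DESeq2 (adjusted p = 0.0547 and 0.0647). With GC adjustment SETDB1 was lost without F133V replicate 1 (adjusted p = 0.201) and without either wild-type library (0.145 and 0.0669), and KDM4A and SETD6 without wild-type replicate 1 (0.108 and 0.104). The direction of each of these 7 genes was the same in every setting. Unadjusted calls were lost in the same way for KMT2A (0.297 and 0.172), KDM3A (0.0626 and 0.0835), KDM5A (0.265 and 0.322) and KDM5C (0.377 and 0.304), and without wild-type replicate 2 for EHMT2 (0.0478 and 0.0524) and KDM1B (0.0302 and 0.0542). The call of KDM5C ended as well with RLE scaling (adjusted p = 0.0505), with no filter on low counts (0.0582) and with DESeq2 (0.103), and that of KDM5A with upper-quartile scaling (0.389), the stricter filter (0.0576) and DESeq2 (0.0632). KMT2A was lost with upper-quartile scaling too (0.276). Among the partner genes named below, calls were lost without either wild-type library for HCFC1 (0.229 and 0.203), HDAC1 (0.0798 and 0.0655), PHF21A (0.4 and 0.254), PRDM4 (0.0659 and 0.139) and CREBBP (0.127 and 0.0625). The HCFC1 call also ended with upper-quartile scaling (0.334), and that of PHF21A with RLE scaling (0.051), with no filter (0.0659) and with DESeq2 (0.136).

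A total of 153 genes of complexes, cofactors, readers and related enzymes around the 45 were tested, of 154 listed. Of these 28 rose (18.3%) and 62 fell (40.5%) without adjustment, against 27.2% and 27.6% of all genes. In both fits 11 rose and 37 fell, or 7.19% and 24.2%. The same shares over all genes were 17.6% and 14.9%. Among PRC2 partners, 4 of 10 fell (40%) and 1 rose (10%) without adjustment. With it 5 fell and 3 rose, against a background of 24.5% and 27.6%. The core subunit EED was lower without adjustment (−0.44) and higher with it (0.29), and the histone-binding subunits RBBP4 (−0.07; GC-adjusted 0.37) and RBBP7 (−0.05; GC-adjusted 0.30) were called higher only with it. These 3 genes were chosen after their values were seen. SUZ12, the core subunit without which EZH1 and EZH2 are unstable, had the largest fall of the list in both fits, from a mean of 87.6 ± 0.306 CPM (SD, n = 2) in wild-type to 43.1 ± 2.57 in F133V (−1.02, SE 0.07, edgeR adjusted p = 5.74e-10; GC-adjusted −0.43, adjusted p = 5.34e-11). The accessory subunits AEBP2 (−0.84; GC-adjusted −0.24) and MTF2 (−0.77; GC-adjusted −0.17) fell in both fits too. Among PRC1 and PR-DUB genes 9 of 22 rose (40.9%) and 8 fell (36.4%) without adjustment, and 4 rose and 7 fell with it. In both fits 2 rose (9.09%) and 5 fell (22.7%). The falls included BMI1 (−0.85, GC-adjusted −0.32), PCGF5 (−0.95, GC-adjusted −0.16), PHC3 (−0.86, GC-adjusted −0.16) and RYBP (−0.64, GC-adjusted −0.14). The 2 genes that rose in both fits were CBX7 (0.42, GC-adjusted 0.19) and CBX8 (0.55, GC-adjusted 0.32).

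**Figure D4:**
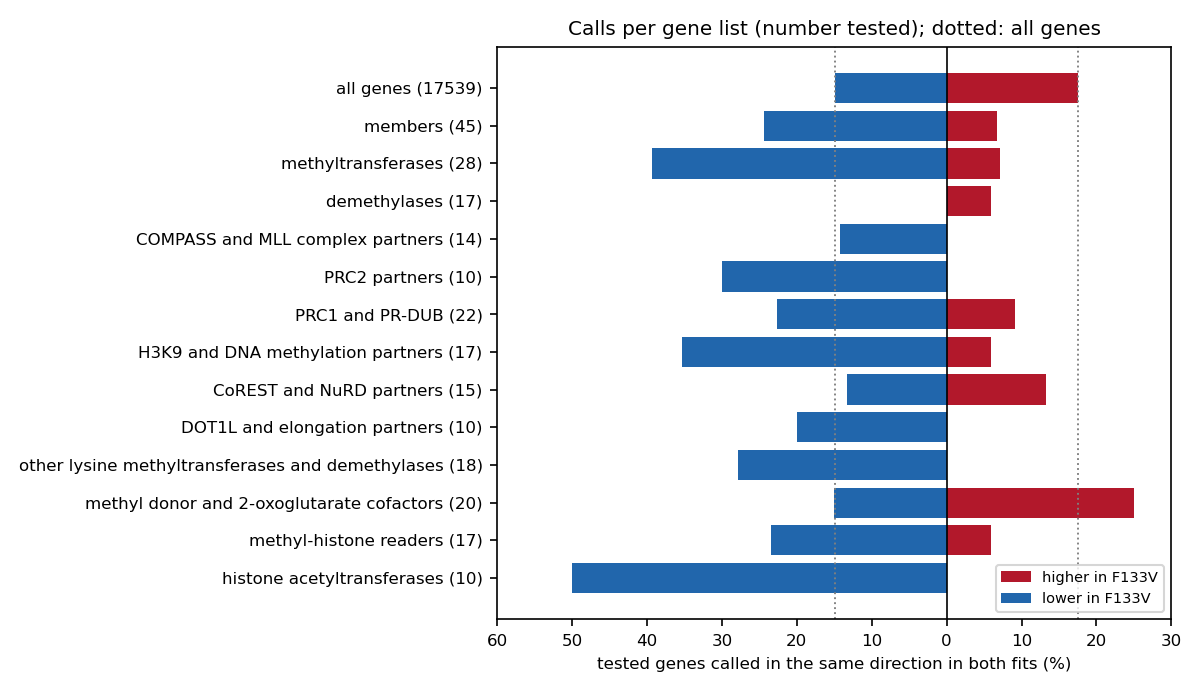
Share of tested genes in percent (horizontal axis, lower to the left, higher to the right) called in the same direction by both fits, for all genes, the 45 genes, their 2 kinds and each list of partner genes, with the number of genes tested in parentheses. Dotted lines mark the shares over all genes, 14.9% lower and 17.6% higher. The methyltransferases reach 39.3% lower and the histone acetyltransferases 50% lower.

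Partners of the H3K9 methyltransferases and of DNA methylation fell in 9 of 17 cases (52.9%) and rose in 1 (5.88%) without adjustment. Over all genes 27.6% fell and 27.2% rose without adjustment, and 24.5% fell and 27.6% rose with it. With adjustment 10 of the 17 fell and 5 rose. CBX5 (−0.21; GC-adjusted 0.26) and ATF7IP (−0.43; GC-adjusted 0.13), chosen after their values were seen, were called in opposite directions. TASOR of the HUSH complex (−1.04; GC-adjusted −0.32), the heterochromatin protein CBX3 (−0.79; GC-adjusted −0.32), ZNF644 of the G9a and GLP complex (−0.88; GC-adjusted −0.23) and UHRF1 (−0.34; GC-adjusted −0.50) fell in both fits. Among COMPASS and MLL complex partners 4 of 14 fell (28.6%, near the share of all genes) and none rose without adjustment. With it 6 fell and 5 rose, and PAXIP1 (−0.48, GC-adjusted −0.39) and HCFC1 (−0.19, GC-adjusted −0.36) fell in both fits. CoREST and NuRD partners of KDM1A were mixed, with 6 of 15 higher (40%) and 5 lower (33.3%) without adjustment, and 3 higher and 5 lower with it. HDAC1, a deacetylase beside KDM1A, rose (0.28, GC-adjusted 0.26), as did PHF21A (0.19, GC-adjusted 0.21). RCOR1 (−0.34, GC-adjusted −0.18) and ZMYM2 (−0.86, GC-adjusted −0.13) fell. The deacetylase gene HDAC2, chosen after its values were seen, was called lower without adjustment (−0.52) and higher with it (0.16). Of DOT1L and elongation partners 6 of 10 fell (60%) and none rose without adjustment. With it 5 fell and 3 rose. MLLT3 (−0.27, GC-adjusted 0.35), ELL2 (−0.40, GC-adjusted 0.12) and CCNT1 (−0.38, GC-adjusted 0.11), chosen after their values were seen, were called in opposite directions. Only AFF4 (−0.72, GC-adjusted −0.21) and AFF1 (−0.37, GC-adjusted −0.14) were lower in both fits (20%, against 14.9% of all genes).

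Of 18 other lysine methyltransferase and demethylase genes, 6 fell (33.3%, against 27.6% of all genes) and none rose without adjustment. With it 7 fell and 1 rose. JMJD1C, a paralog of KDM3A and KDM3B, fell from a mean of 87.1 ± 0.535 CPM (SD, n = 2) in wild-type to 36.3 ± 6.12 in F133V (−1.26, SE 0.086, edgeR adjusted p = 6.15e-10; GC-adjusted −0.69, adjusted p = 2.05e-15). SETD2, which trimethylates H3K36, fell from 74.3 ± 5.16 to 45.5 ± 6.32 CPM (−0.71, SE 0.084, edgeR adjusted p = 5.14e-07; GC-adjusted −0.34, adjusted p = 2.89e-07). RIOX2 (−0.77; GC-adjusted −0.42) and PRDM4 (−0.27; GC-adjusted −0.29) fell in both fits as well. Readers of methylated histones fell in 9 of 17 cases (52.9%) and rose in 2 (11.8%, against 27.2% of all genes) without adjustment. With it they fell in 6 and rose in 4. SPIN1 (−0.31; GC-adjusted 0.13) and MORF4L1 (−0.16; GC-adjusted 0.18), chosen after their values were seen, were called in opposite directions. Both fits agreed on CHD1 (−1.08; GC-adjusted −0.42), BPTF (−0.75; GC-adjusted −0.43) and ING2 (−0.49; GC-adjusted −0.56), which were lower, and on ING4 (0.68; GC-adjusted 0.55), which was higher.

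The genes that supply S-adenosylmethionine and 2-oxoglutarate were mixed. Without adjustment 8 of 20 were higher (40%, against 27.2% of all genes) and 6 lower (30%, against 27.6%), and with it 7 were higher and 6 lower. MAT2A, which makes S-adenosylmethionine, fell from 261.1 ± 1.78 CPM (SD, n = 2) in wild-type to 184.2 ± 9.43 in F133V (−0.50, SE 0.059, edgeR adjusted p = 5.05e-07; GC-adjusted −0.41, adjusted p = 2.99e-12), and methionine synthase MTR fell too (−0.56; GC-adjusted −0.32). IDH2, the mitochondrial isocitrate dehydrogenase that makes 2-oxoglutarate with NADP, rose from 74.8 ± 1.48 to 129.9 ± 4.73 CPM (0.80, SE 0.064, edgeR adjusted p = 3.54e-09; GC-adjusted 0.58, adjusted p = 6.88e-16). IDH3A, a subunit of the NAD-dependent enzyme, fell (−0.52; GC-adjusted −0.30). Of 10 histone acetyltransferase genes 5 fell (50%) and 1 rose (10%) without adjustment. All 5 falls were called with adjustment as well (50% in both fits, against 14.9% of all genes). Among them were KAT2B (−0.73, GC-adjusted −0.53), KAT6B (−0.47, GC-adjusted −0.27), CREBBP (−0.27, GC-adjusted −0.36) and HAT1 (−0.63, GC-adjusted −0.21).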

How the data were processed

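The sources used here do not give the RNA selection, library kit, strand or annotation release. Per the labels' protocols, total RNA was sequenced as single reads of 75 bases. Raw, unscaled counts of reads in each gene were deposited for every library. TopHat2 2.0.10, HTSeq 0.6.0 and genome build hg38 are named in the submitters' processing notes. The counter's tallies of unassigned reads stayed out of library sizes and tests: reads over no gene made up 6.12% to 6.53%, reads over more than 1 gene 3.5% to 3.73% and reads with several alignments 13.6% to 16.6% per library. Genes with near-identical copies can lose reads in the last class.

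Symbols were matched for 60400 identifiers. Transcript length, GC content and exon overlap came from GENCODE release 29 (GRCh38), which need not be the authors' release. Counts were tested in R 4.3.3 with edgeR 4.0.16 (filterByExpr, TMM, quasi-likelihood F-test, two-sided, Benjamini-Hochberg threshold 0.05, 2 residual degrees of freedom). Levels in CPM use TMM-scaled library sizes, and each SE came from the log2 fold change and its F statistic. The offset of the GC-adjusted fit was a smooth per library on log2 length and GC content (basis dimension 8 in mgcv 1.9.3, over genes of mean log2 CPM above 2), and 17299 genes had a value for it. The biological coefficient of variation was 4.64% without and 2.46% with it. The offset was estimated from the same libraries and then taken as known, so the GC-adjusted p-values leave out its uncertainty. The F133V replicates differed by more than sampling noise (chi-square over degrees of freedom 8.38), as did the wild-type replicates (1.71), so each was counted as its own library. Alternatives were other scalings and filters, glmTreat against a fold of 1.2, a replicate block, each library left out, and DESeq2 1.42.0.

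The genes and partner lists were chosen with earlier results of these data known. Levels in every library are given for SPOP, for genes called in the same direction by both fits and for the highest and lowest fold change of each class; further genes of the 45 were given so after their values were seen. From each partner list up to 4 genes of lowest adjusted p called alike by both fits are named. Any further partner genes were named after their values were seen.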

Additional observations from a re-analysis of the deposited data

How the results depend on the processing

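Depth limits SETDB2 most, the gene with the fewest reads (204 in its lowest library) and the largest SE. Values follow as unadjusted, then alternative; the cause of each change was not tested beyond what the setting itself alters. All genes: 4763 higher and 4841 lower became 2398 and 3067 with glmTreat and, for the higher calls, 2955 with DESeq2, with 2786 to 5225 higher when each library was left out in turn. Upper-quartile scaling moved the median of all genes by 0.11 and the split to 6462 higher and 3831 lower. The 45 genes: 6 higher became 10 with GC adjustment, 12 with upper-quartile scaling, 1 with glmTreat, 3 with DESeq2 and 10 with the replicate block and GC adjustment together, and 1 to 12 with a library left out. The 18 lower became 9 with glmTreat and 10 to 25 with a library left out. The median of −0.12 became −0.07 with GC adjustment, −0.01 with upper-quartile scaling, −0.07 with the replicate block and GC adjustment, and −0.13 to −0.07 with a library left out. Partner genes: 28 higher became 51 with upper-quartile scaling, 5 with glmTreat, 18 with DESeq2 and 8 to 41 with a library left out, and 62 lower became 37 with glmTreat.

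Counting only genes called before or after adjustment, the sign changed with GC adjustment, and equally with GC adjustment and the replicate block, for KMT2B (−0.15 and −0.15), NSD3 (0.10 and 0.10), DOT1L (−0.17 and −0.18), KMT5B (0.29 and 0.29), KDM1B (0.04 and 0.04), KDM3A (0.11 and 0.11), KDM5A (0.19 and 0.19), KDM6B (−0.17 and −0.17) and KDM7A (0.23 and 0.23). With each library left out in turn, with and without GC adjustment, values ran from −0.22 to 0.06 for KMT2B, −0.45 to 0.11 for NSD3, −0.22 to 0.10 for DOT1L, −0.31 to 0.31 for KMT5B, −0.44 to 0.06 for KDM1B, −0.42 to 0.13 for KDM3A, −0.11 to 0.20 for KDM4B, −0.28 to 0.21 for KDM5A, −0.23 to 0.06 for KDM6B and −0.54 to 0.24 for KDM7A. A genotype left with 1 library was assumed to vary like the other.

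Same-numbered libraries did not deviate together (correlation −0.0531 over 11788 genes, 0.00507 over 11766 after GC adjustment), so no pairing by number was seen. With 2 libraries per genotype such a correlation cannot exclude that same-numbered libraries were prepared together. The replicate block gave 5 higher and 17 lower of the 45 genes, and 4619 and 4746 of all genes. The block ended the unadjusted calls of KDM5A (adjusted p = 0.0536), KDM5C (0.0558) and PHF21A (0.0561).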
